A study of Mus musculus with 36 samples.

Results

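The cytosolic ribosomal protein genes were followed through the conversion of B cells into macrophages (B cell to macrophage transdifferentiation, BMT). Members were taken by symbol: an Rpl or Rps name with a number and an optional a, l or x ending, the P proteins Rplp0 to Rplp2, and Rpsa. This gave 84 of the 19067 genes in the normalized tables, with 34 small-subunit (Rps) and 50 large-subunit (Rpl) names. Another 4 matching names occurred in the raw count tables only. They were Rpl32l, Rpl6l, Rpl10l and Rps3a2, with 20, 43, 2 and 11 counts over all libraries.

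Mouse B cells were infected with a retrovirus that carried a human CD4 marker and C/EBPα fused to the estrogen receptor (ER). C/EBPα is the transcription factor that drives myeloid fate, and the fusion becomes active when 17ß-estradiol is added. The virus encoded the wild-type factor, R35A (arginine 35 replaced by alanine) or R35K (the same arginine replaced by lysine). The arginine is a target of the methyltransferase Carm1, and the study asked how its replacement alters the pace of BMT. Cells that carried human CD4 were cultured on inactivated mouse embryo fibroblast feeders with cytokines in all groups, and feeders were removed by adherence before RNA extraction. Each construct was sampled without induction (0 hpi, hours post induction) and then at 5 times, the first at 1 hpi and the last at 120 hpi, with 2 libraries per group and 36 in all. Poly(A) RNA was read as 50-base single-end reads, and libraries held between 13044456 and 23131776 gene counts. The study calls its RNA-seq replicates biological. Nothing in the labels says that replicates were separate infections, so p-values measure only the spread between these libraries.

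The ribosomes of the cytosol are built from ribosomal RNA and about equal amounts of each ribosomal protein. The small subunit reads the messenger RNA, and the large subunit joins the amino acids and passes the growing chain through its exit tunnel. Most mRNAs for these proteins begin with a terminal oligopyrimidine (TOP) tract, through which growth signals, mTOR and Larp1 adjust their translation and stability as a set. Ribosomal protein mRNAs are usually among the most abundant in proliferating lymphoid progenitors.

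The start regions of the members were read from RefSeq (GRCm38.p6), in which 62 of the 84 members had an entry. A run of at least 8 bases of C or T only, covering a base within 5 of the annotated start, was found in 24 of the 62 (38.7%) and in 2962 of 27025 genes (11%). For genes with several starts the one with the longest run was counted. The same search on the other strand, a run of G or A, gave 1.61% of members and 9.42% of all genes at these starts. Over all annotated starts, with none chosen, the pyrimidine run was at 32.4% of member starts and 9.38% of all starts, and the run of G or A at 4.05% and 10.4%. The mitochondrial ribosomal protein genes, which are not TOP genes, had the pyrimidine run in 7 of 68 (10.3%). The windows below hold 30 bases, 5′ to 3′, with the annotated start as base 16 and the longest C or T run near it in capitals. The first 5 have a run of 8 or more and are shown with 4 that do not, because values of both kinds are followed in the results.
Rpl15, chr14:18270972-18271001, minus strand: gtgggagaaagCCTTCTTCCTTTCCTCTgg
Rpl7a, chr2:26910792-26910821, plus strand: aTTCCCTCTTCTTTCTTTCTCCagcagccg
Rpl34, chr3:130730323-130730352, minus strand: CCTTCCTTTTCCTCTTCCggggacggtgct
Rpl4, chr9:64173372-64173401, plus strand: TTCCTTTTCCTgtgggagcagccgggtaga
Rps18, chr17:33955651-33955680, minus strand: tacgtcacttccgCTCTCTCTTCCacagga
Rps3, chr7:99483695-99483724, minus strand: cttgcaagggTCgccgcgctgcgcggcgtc
Rps19, chr7:24884577-24884606, plus strand: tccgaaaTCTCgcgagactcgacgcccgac
Rpl10, chrX:74270801-74270830, plus strand: gttgttacagTggaagataggccgcctata
Rpl3l, chr17:24727811-24727840, plus strand: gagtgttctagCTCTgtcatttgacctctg

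Ribosomal protein genes have many processed copies in the genome, and the counts hold only reads with a single best position. The spliced transcript of each member was therefore divided into all 50-base windows and searched for in the transcripts of other annotated genes (GENCODE vM21). The median member had 49.7% of its windows found in no other gene. The lowest value was 1.35% in Rps27, a zinc-binding small-subunit protein, and the highest was 100%, reached by Rpl3l and Rpl39l among others. For 42 members fewer than 50% of the windows were their own. Across the 84 members the mean level in CPM (counts scaled to the library total) rose with this share (Spearman's rho 0.465, across genes that share the same libraries). Mean levels spanned 0.26 to 1350 CPM with a median of 52.6, and 24 members were below 10. Pseudogenes named after members (261 of 60 members) held 0.743% as many counts as the members did. For single members this ran up to 143% (Rps13), and it was 88.1% for Rpl19, 32.0% for Rpsa and 26.2% for Rpl36a. A member's level is therefore the level of its uniquely mapped part. Each member is compared below only with itself across libraries, on this CPM scale.

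**Figure D1:**
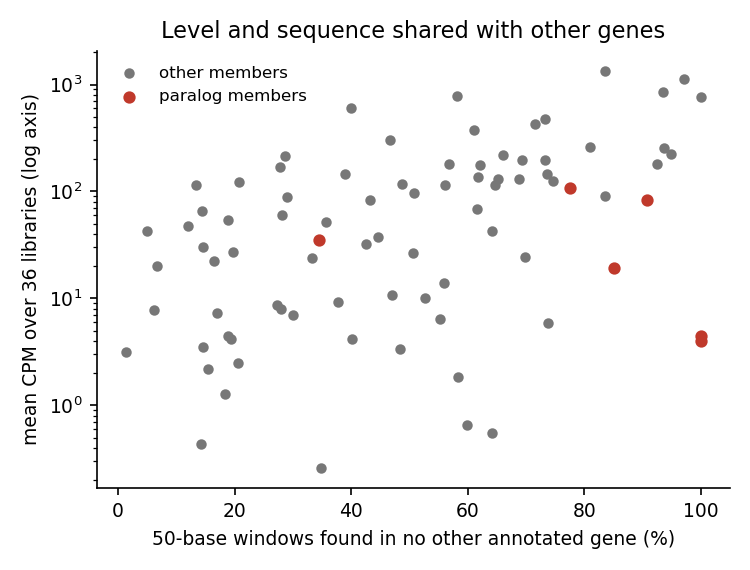
Mean level of each of the 84 members over 36 libraries (CPM, log axis) against the percentage of its 50-base windows found in no other annotated gene; red points are the paralog members. Members with few windows of their own, such as Rps27 at 1.35%, sit mostly at low CPM, with Spearman's rho 0.465 over the 84 genes.

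Before induction the members took 1.59% to 1.71% of all gene counts in the 6 libraries at 0 hpi. The wild-type libraries were at 1.71% and 1.70%, the R35A libraries at 1.62% and 1.65%, and the R35K libraries at 1.59% and 1.65%. At 1 hpi the share stood at 1.38% and 1.36% with wild type, 1.09% and 1.1% with R35A, and 1.18% and 1.16% with R35K. Every library at 1 hpi was thus below every library at 0 hpi, and the mutants were below the wild type.

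Relative to its own 0 hpi mean, the wild-type share was 80.4% after 1 h and 75.8% after 3 h. It then reached 66.0% (6 hpi) and 64.6% (18 hpi). The R35A share was already at 66.9% at 1 hpi and then at 68.1%, 69.4% and 66.1%. The R35K share was at 72.1%, 69.4%, 68.7% and 69.4%. At 18 hpi the libraries of the 3 constructs lay close together, at 1.11% and 1.09% for wild type, 1.08% in both R35A libraries, and 1.13% and 1.12% for R35K. At 120 hpi they were apart again: wild type stood at 1.28% and 1.21%, R35A at 0.929% and 0.901%, and R35K at 1.03% and 0.937%. These were 73.4%, 56.0% and 60.7% of the 0 hpi share. The shares are descriptions with no test. In bulk RNA, fewer cells of a kind and less of these mRNAs per cell cannot be told apart.

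**Figure D2:**
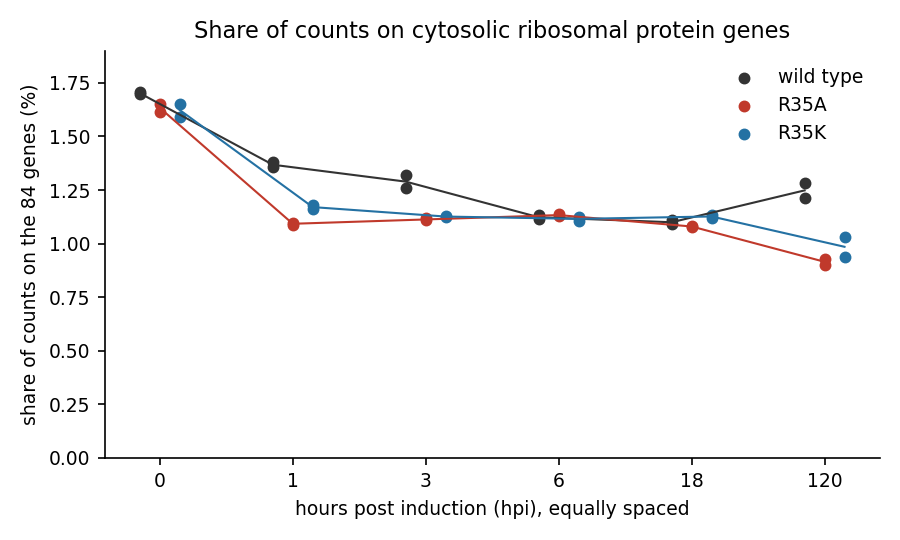
Percentage of all gene counts on the 84 members by hpi, with 1 point per library and lines through the means of the 2 libraries for wild type, R35A and R35K. From 1 to 18 hpi the mutants stay between 1.08% and 1.18% while wild type descends from 1.38% and 1.36% to 1.11% and 1.09%, and at 120 hpi wild type (1.28% and 1.21%) lies above both mutants.

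Tests were made on the counts of all genes with edgeR's quasi-likelihood F test, and a gene is said to be called where its Benjamini-Hochberg adjusted p over all genes tested was at most 0.05. At 0 hpi the R35A and wild-type cells had 0 members called in either direction. Of all genes, 0.141% were called higher and 0.0471% lower in R35A. At an unadjusted p under 0.05, 1 member was higher and 18 were lower in R35A, and DESeq2's Wald test called 2 members lower. The shares of all genes past these other thresholds were not counted, so the shares above cannot be set against them. The median difference over the members was -0.06 on the log2 scale, against 0.00 for all genes. The R35K libraries come in tables of their own and their 0 hpi level was not tested against the others.

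At 1 hpi ribosomal protein mRNAs were lower with all 3 constructs. With wild type, 65 of the 84 members fell and 3 rose, where 26.1% of all genes were called lower and 25.4% higher. With R35A 70 fell and 3 rose, where 33.9% of genes were called lower and 32.3% higher. With R35K, in which 82 members could be tested, 69 fell and 1 rose, where 34.6% of genes were called lower and 29% higher. The median log2 fold change of the members was -0.30 with wild type, -0.51 with R35A and -0.45 with R35K, and that of all genes was -0.01, -0.01 and -0.04. The falls were narrowly spread, with the middle 50% of members between -0.45 and -0.25 for wild type and between -0.67 and -0.40 for R35A. Small-subunit and large-subunit members had medians of -0.29 and -0.30 for wild type and -0.53 and -0.49 for R35A. With each of the 3 constructs 59 members fell, out of 65, 70 and 69. With so many called, much of this overlap follows from the counts themselves, and the overlap over all genes was not counted.

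Rpl4, whose long loop lines the exit tunnel and whose pyrimidine run ends just before the annotated start in the window above, shows the course. In the wild-type series, in order of time, it stood at 1995 and 1974 CPM, then 1552 and 1572, 1413 and 1503, 1268 and 1312, 1166 and 1159, and 1400 and 1381. With R35A it stood at 1872 and 1864, then 1180 and 1191, 1181 and 1188, 1209 and 1214, 1138 and 1136, and 996 and 1071. The R35A level at 1 hpi was thus one that wild type reached only at 18 hpi, with no overlap between 0 hpi and any later time. With R35K the values were 1850 and 1921 at 0 hpi, 1263 and 1221 at 1 hpi, and 1155 and 1075 at 120 hpi. The log2 fold change of Rpl4 at 1 hpi was -0.33 ± 0.03 (SE; adjusted p 6.62e-20) with wild type. It was -0.67 ± 0.03 (4.37e-41) with R35A and -0.60 ± 0.03 (1.85e-23) with R35K.

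Rps3, at the mRNA entry of the small subunit, has 97.0% of windows of its own, and its start, shown above, lacks a pyrimidine run. It fell from 1541 and 1528 CPM to 1263 and 1257 within 1 h of wild-type induction, and from 1456 and 1460 to 969 and 989 with R35A. Its log2 fold changes were -0.27 ± 0.03 (adjusted p 2.44e-14) and -0.59 ± 0.03 (4.46e-35). With wild type 17 of 24 members with the run and 33 of 38 without it were called lower at 1 hpi, with medians of -0.28 and -0.30. With R35A these were 22 of 24 and 31 of 38, with medians of -0.54 and -0.47. This difference between both kinds was not tested.

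Among the largest called falls at 1 hpi with wild type were Rpl36a near the exit site of tRNA (-0.71 ± 0.17, adjusted p 0.000201), Rpl11 (-0.67 ± 0.12, 3.74e-07), Rpl28 (-0.64 ± 0.11, 8.97e-07) and Rps7 (-0.63 ± 0.18, 0.00217). The call of Rps7 was lost without the first wild-type 0 hpi library (adjusted p 0.227), where its value was -0.35. An exon of Rpl28 overlaps Ube2s on the other strand, and the strand setting of the counting is not given in the sources used here. With R35A, beside the paralog Rpl3l described below, they included Rpl38 (-1.33 ± 0.48, 0.011), Rpl36a (-1.09 ± 0.17, 1.22e-08) and Rps3a1 (-0.87 ± 0.06, 2.78e-15), a protein of the small-subunit platform. Rpl38 lost its call with DESeq2 (adjusted p 0.0574), with pseudogene counts added (-0.72, 0.116), and without the first R35A library at 0 hpi (-0.92, 0.183) or at 1 hpi (0.0743). With R35K they were Rpl36a (-1.58 ± 0.18, 2.3e-11), Rpl27 (-0.93 ± 0.11, 2.49e-10), Rpl3 (-0.79 ± 0.05, 7.86e-20) and Rpsa (-0.78 ± 0.10, 6.61e-10).

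The fall differed in size between the constructs at 1 hpi. In the test of the difference itself (the change from 0 hpi with R35A minus that with wild type), 36 members were lower and 2 higher with R35A, where 19.7% of genes were lower and 14.7% higher. The median difference over the members was -0.20, and over all genes -0.02. For R35K minus wild type, which uses the same wild-type libraries, 19 members were lower and 3 higher, where 14.3% and 14.7% of genes were called, with medians of -0.07 and 0.01. The R35K count of 22 dropped to 14 without the second R35K 0 hpi library.

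Rps19, a protein of the small-subunit head whose mutation causes Diamond-Blackfan anemia, had the largest called difference for R35A after Rpl3l. It stood at 227 and 245 CPM at 0 hpi and at 200 and 201 at 1 hpi with wild type. With R35A it stood at 247 and 246 and then at 140 and 144. With R35K it stood at 239 and 262 and then at 165 and 157. The 1 hpi values of both mutants lay below both wild-type values, and at 0 hpi both R35A libraries lay just above the wild-type ones. The difference of the changes was -0.59 ± 0.05 (adjusted p 1.53e-16) for R35A and -0.33 ± 0.06 (1.73e-06) for R35K. Other members with a larger fall in R35A were Rps3a1 (-0.58 ± 0.08, adjusted p 5.39e-07), Rpl29 (-0.55 ± 0.11, 2.29e-05), the paralog Rpl22l1 (-0.49 ± 0.09, 4.44e-06) and Rpl13a (-0.49 ± 0.09, 9.18e-06), of which Rpl13a also differed in R35K (-0.38 ± 0.10, 0.000895).

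Rpl10, which joins the large subunit late and reaches toward the catalytic centre, went the other way. With wild type it fell from 34.8 and 33.2 CPM to 22.4 and 22, with a log2 fold change of -0.61 ± 0.08 (adjusted p 2.11e-10). With R35A it stood at 32.9 and 33.0 and then at 31.0 and 30.9, a change of -0.11 ± 0.07 that was not called (0.19). With R35K it stood at 33.7 and 31.8 and then at 27.0 and 31.7 (-0.16 ± 0.07, 0.0583). The wild-type libraries at 1 hpi were the low ones, and both mutants stayed near their starting level. The difference was 0.50 ± 0.11 (9.8e-05) for R35A and 0.52 ± 0.11 (6.88e-05) for R35K. Rpl10a, the protein of the mobile L1 stalk, fell with all 3 constructs, from 58.1 and 55.6 to 39.9 and 37.0 CPM with wild type and from 58.0 and 54.0 to 49.4 and 50.6 with R35A. With R35K it went from 57.4 and 58.3 to 46.2 and 46.8 CPM. Its R35A fall was lost with DESeq2 (adjusted p 0.207). Its difference was 0.38 ± 0.08 (8.39e-05) for R35A and 0.32 ± 0.08 (0.0011) for R35K. No more than 14.6% of the windows of Rpl10 and 11.9% of those of Rpl10a were their own, exons of Rpl10 hold Snora70, and those of Rpl10a overlap a transcript on the other strand. Their part in the difference was not tested.

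**Figure D3:**
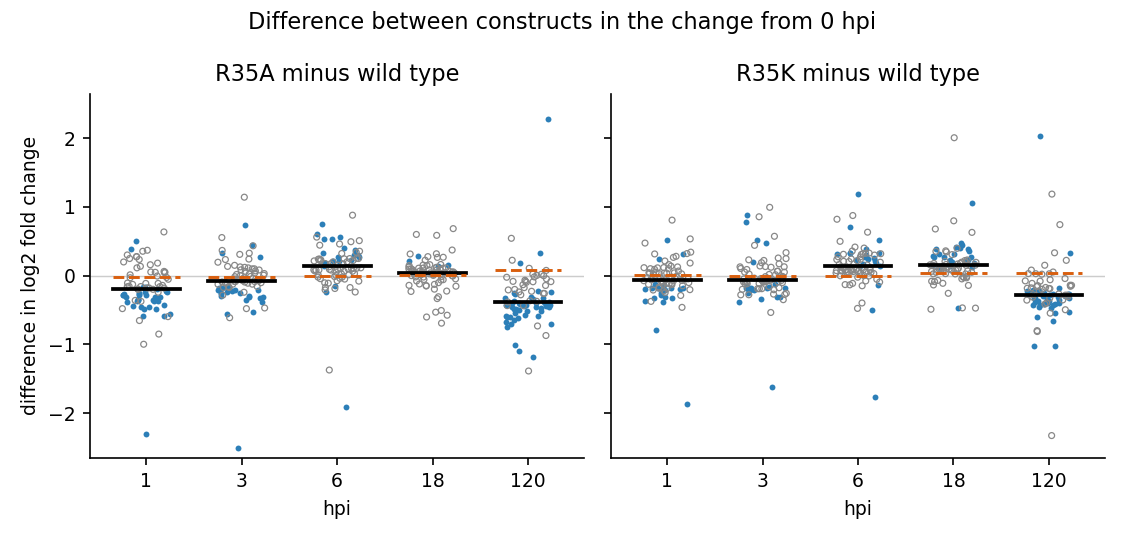
Log2 difference of the change from 0 hpi, mutant minus wild type, for each member at 1, 6, 18 and 120 hpi (left R35A, right R35K); filled points are called, open points are not, the black line is the members' median, the dashed line that of all genes, and values beyond ±2.5 are drawn at the edge. Members lie mostly below 0 at 1 hpi (R35A median -0.20), slightly above 0 at 6 hpi (0.15 and 0.14), and below 0 again at 120 hpi (-0.38 and -0.28).

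Between 3 and 18 hpi the wild-type levels went lower than at 1 hpi. Their median log2 fold change over the members was -0.41 at 3 hpi and -0.62 at 6 hpi, and it stood at -0.57 at 18 hpi. With R35A the medians were -0.50 at 3 hpi and -0.52 at 18 hpi, and with R35K -0.49 and -0.46. At 6 hpi with wild type 76 members were lower and 2 higher, where 31.3% and 29% of genes were called. At 18 hpi 72 were lower and 3 higher with wild type (36% and 35.9% of genes), 72 and 3 with R35A (34.9% and 35.3%), and 67 and 3 with R35K (34.3% and 34%). All-gene medians at 18 hpi were 0.02, 0.01 and 0.01. The members' median minus that of all genes was -0.59, -0.53 and -0.48. At 18 hpi 63 members were lower with all 3 constructs, an overlap that was not counted over all genes either.

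The difference between constructs had turned by 6 hpi. For R35A minus wild type 18 members were higher and 3 lower, where 11.8% of genes were higher and 14.5% lower, with medians of 0.15 for members and -0.01 for all genes. For R35K minus wild type 18 were also higher and 3 lower (16.1% and 14.1% of genes), with medians of 0.14 and -0.00. At 18 hpi only 4 members were higher and 0 lower for R35A minus wild type, where 12.1% and 10% of genes were called. DESeq2's Wald test called 0 higher and 1 lower there, and a fit of the 4 groups compared called 10 and 2. The median difference was 0.04, against 0.00 for all genes. For R35K minus wild type 23 were higher and 1 lower (18.7% and 12.3% of genes), with medians of 0.15 and 0.04. DESeq2's Wald test left 5 higher and 3 lower there. The largest called values at 18 hpi were Rps23 of the decoding centre (1.06 ± 0.30, adjusted p 0.00326) and Rpl35 at the tunnel exit (0.48 ± 0.14, 0.0101), and both were lost when certain single libraries were left out (adjusted p up to 0.164 and 0.0576).

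From 18 to 120 hpi ribosomal protein mRNAs rose with wild type. Of the 84 members 56 rose and 6 fell, where 37.2% of genes rose and 42.3% fell. The median change was 0.45, against -0.09 for all genes. The difference of these medians was 0.54. A change of scaling moves members and all genes alike, so this difference cannot show dependence on the scaling. With only the groups compared, where the set of genes tested differs, it was 0.49. With R35A 25 rose and 20 fell (36.6% and 39.9% of genes), with medians of 0.03 and -0.06. With R35K 36 rose and 16 fell (37.2% and 40% of genes), with medians of 0.12 and -0.06. The splits of the mutants depend on the scaling, since by library size alone 9 rose and 49 fell with R35A, and 7 rose and 40 fell with R35K. The median of all genes was then -0.32 with R35A and -0.35 with R35K, and the share of all genes called was not counted. The members' median stood above that of all genes by 0.08 and 0.18.

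Rps9, a small-subunit protein at the mRNA entry, was among the larger of these. With wild type it stood at 607 and 619 CPM before induction, 461 and 467 at 1 hpi, 384 and 367 at 18 hpi, and 798 and 702 at the end. With R35A the values were 564 and 579, 389 and 404, 383 and 391, and 559 and 518. With R35K they were 562 and 587, 423 and 421, 409 and 421, and 599 and 523. Only in wild type did both 120 hpi libraries exceed both 0 hpi libraries. The rise from 18 hpi with wild type was 1.06 ± 0.05 (adjusted p 1.51e-19). Rpl23 at the subunit interface (0.93 ± 0.04, 5.04e-33), Rpl37a (0.96 ± 0.11, 3.34e-06), Rps13 (1.04 ± 0.15, 5.09e-10) and Rpl7 (0.88 ± 0.04, 1.16e-40) rose with it.

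Compared with 0 hpi, the members at 120 hpi were split with wild type and lower with the mutants. With wild type 14 were higher and 33 lower, where 30.9% of genes were higher and 50.6% lower. With R35A 2 were higher and 71 lower (32.7% and 49.4% of genes), and with R35K 3 higher and 59 lower (33.9% and 49.1%). The members' medians were -0.15, -0.53 and -0.34. The median of all genes lay at -0.36, -0.31 and -0.28, and it moved with the scaling: with wild type it was -0.20 with DESeq2's size factors and -0.68 by library size alone. The wild-type split was then 27 higher and 25 lower, and 1 higher and 72 lower. Shares of all genes called were not counted under these scalings. Without the second wild-type 120 hpi library the members' median was 0.04. Relative to all genes the members' median was 0.21 higher with wild type, 0.23 lower with R35A and 0.06 lower with R35K. A change of scaling moves members and all genes alike, so these differences cannot show dependence on the scaling. With only the groups compared, where the set of genes tested differs, they were 0.17, -0.26 and -0.08. Of the members 30 were lower with all 3 constructs and 0 were higher with all 3, overlaps that were not counted over all genes.

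**Figure D4:**
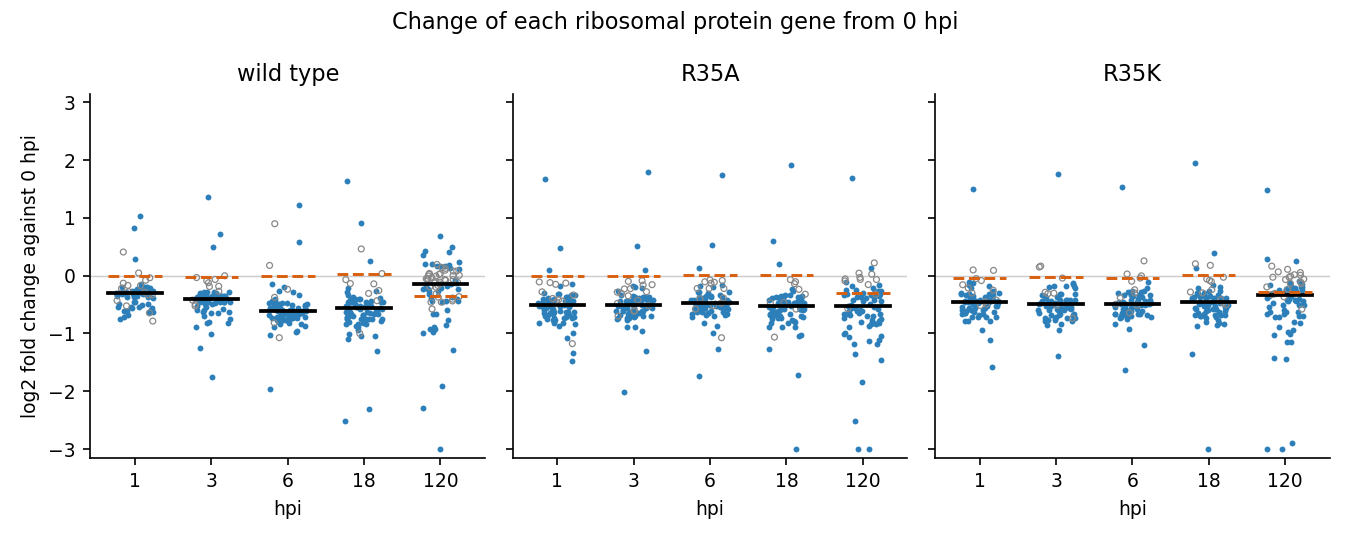
Log2 fold change from 0 hpi of each member at the 5 later times for wild type, R35A and R35K; filled points are called, open points are not, the black line is the members' median, the dashed line that of all genes, and values beyond ±3 are drawn at the edge. The members form a tight band below 0 from 1 to 18 hpi and spread at 120 hpi, where the all-gene median itself lies below 0 (-0.36, -0.31 and -0.28).

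The members above their starting level at 120 hpi with wild type were led by Rpl19, whose long helix bridges the subunits (0.68 ± 0.23, adjusted p 0.00533), Rpl37a (0.50 ± 0.11, 0.001), Rpl23 (0.42 ± 0.04, 9.72e-15), Rpl10 (0.42 ± 0.08, 4.99e-07) and Rps9 (0.36 ± 0.05, 1.57e-08). Rpl23 stood at 156 and 153 CPM at 0 hpi and at 188 and 206 at 120 hpi. By library size alone the calls of Rpl19, Rpl37a, Rpl10 and Rps9 were lost. That of Rpl19 was also lost with pseudogene counts added (0.29, adjusted p 0.103) and without the first wild-type 120 hpi library (0.0507). The exons of Rpl19 also carry other transcripts on the same strand. Rps2, at the mRNA entry, fell from 312 and 310 to 163 and 156 CPM with wild type (-0.89 ± 0.04, 7.2e-41). It fell from 295 and 293 to 131 and 133 with R35A (-1.14 ± 0.04, 2.76e-49) and from 294 and 311 to 137 and 126 with R35K (-1.15 ± 0.04, 6.05e-32). In all 3 courses the 120 hpi libraries were the lowest of the 12. An exon of Rps2 carries Snora64, and Snhg9 lies on its other strand.

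Rpl36a, with 14.5% of windows of its own, fell furthest among the members that are not paralogs. It went from 6.48 and 7.10 to 1.36 and 1.28 CPM with wild type (-2.28 ± 0.24, adjusted p 2.44e-15). With R35A it went from 7.10 and 6.90 to 1.09 and 1.30 (-2.52 ± 0.23, 2.43e-18), and with R35K from 8.06 and 7.24 to 1.00 and 0.756 (-3.07 ± 0.24, 3.12e-17). Rpl28 (-1.29 ± 0.14, 4.24e-15), Rpl36 (-0.99 ± 0.20, 3.81e-06) and Rpsa (-0.91 ± 0.10, 1.83e-13), which sits at the mRNA exit, were lower as well with wild type. Rpl28 also fell with R35A (-1.36 ± 0.13, 2.62e-16) and R35K (-1.45 ± 0.14, 1.81e-14).

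The test of the difference at 120 hpi gave 46 members lower and 3 higher for R35A minus wild type, where 13.2% of genes were lower and 20.5% higher. The median was -0.38, against 0.08 for all genes. For R35K minus wild type 38 were lower and 2 higher (10.8% and 14.2% of genes), with medians of -0.28 and 0.03. Rpl23 differed by -0.54 ± 0.06 (adjusted p 8.25e-12) with R35A, where it stood at 133 and 154 CPM, and by -0.38 ± 0.06 (6.02e-07) with R35K, at 160 and 157. Rps9 differed by -0.43 ± 0.06 (2.33e-06) and -0.37 ± 0.09 (0.00255). Rpl10 differed with R35A (-0.51 ± 0.11, 5.89e-05) and was at -0.16 ± 0.11 with R35K (0.315). The R35A and R35K values share the wild-type libraries and cannot be read as separate tests of wild type.

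Further members with a lower course in R35A included Rpl19 (-1.01 ± 0.33, adjusted p 0.0114), Rpl11 (-0.75 ± 0.18, 0.000467), Rps25 (-0.70 ± 0.19, 0.00206) and Rps3a1 (-0.70 ± 0.08, 2.36e-08). Rps3a1 stood at 115 and 126 CPM at 120 hpi with wild type, close to its 124 and 123 at 0 hpi, and at 74.9 and 87.0 with R35A, against 134 and 126. Rpl19 and Rps25 were also lower in R35K (-1.02 ± 0.33, 0.0125, and -0.66 ± 0.19, 0.00518). Leaving out the first wild-type 120 hpi library ended the calls of Rpl19 and Rps25 for both mutants, with adjusted p between 0.0785 and 0.161. Those of Rpl19 were also lost with pseudogene counts added (0.0563 and 0.149).

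The counts of structural groups are to be read against the shares of all genes called lower, which were 26.1%, 33.9% and 34.6% at 1 hpi and 50.6%, 49.4% and 49.1% at 120 hpi with wild type, R35A and R35K. Among these groups, the small-subunit head and mRNA channel had 10 members, of which 9 fell at 1 hpi with wild type (median -0.29), and 8 with R35A (-0.59) and R35K (-0.49). In the difference R35A minus wild type 8 of 10 were lower at 1 hpi (median -0.33) and 8 of 10 at 120 hpi (-0.38). For this difference 19.7% of all genes were lower at 1 hpi and 13.2% at 120 hpi. Rps18 of this group, with a pyrimidine run across its start in the window above, was at -0.35, -0.72 and -0.63 at 1 hpi with wild type, R35A and R35K, while Rps29 was not called with any of them. The proteins of the 5S RNP, Rpl5 and Rpl11, carry 5S rRNA and bind Mdm2 when ribosome assembly fails. Rpl5 fell at 120 hpi by 0.98 ± 0.14 with wild type (7.15e-10), 0.98 ± 0.14 with R35A (1.42e-09) and 1.01 ± 0.15 with R35K (1.31e-08) on the log2 scale. Rpl11 fell by 0.43 ± 0.12 (0.000743), 1.18 ± 0.13 (6.36e-14) and 0.93 ± 0.13 (3.08e-09). The wild-type call of Rpl11 was lost with DESeq2 (adjusted p 0.101), and only 6.16% of the windows of Rpl5 were its own.

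The P stalk recruits the elongation factors. At 1 hpi 2 of its 4 members fell with wild type, with Rplp0 at -0.30 ± 0.03 (adjusted p 1.24e-14) and Rplp2 at -0.55 ± 0.11 (0.00116). Rplp1 at -0.17 ± 0.08 (0.0998) and Rpl12 at -0.17 ± 0.08 (0.068) were not called. At 120 hpi all 4 were lower with R35A (median -0.55) and with R35K (-0.43), and 2 with wild type (-0.13), where 50.6% of all genes were lower. Around the peptidyl transferase centre all 4 members fell at 1 hpi with wild type (median -0.47) and 3 with R35A (-0.65), Rpl10 being the one not called. Rpl3, which approaches this centre, fell from 105 and 104 to 66.6 and 69.9 CPM with wild type and from 92.8 and 94.0 to 52.0 and 55.0 with R35A. At the tunnel exit 5 of 8 members fell at 1 hpi with wild type and 7 with R35A, and at 120 hpi with wild type 2 were higher and 1 lower (median 0.02). At the mRNA exit all 4 fell at 1 hpi with each construct, and at 120 hpi with wild type 2 were higher and 1 lower. Of all genes 30.9% were higher and 50.6% lower at 120 hpi with wild type.

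The paralog members are near copies of ribosomal protein genes, several of them known for tissue-limited use, and 6 could be tested. At 1 hpi with wild type 3 rose and 2 fell, with a median of 0.17, where 25.4% of all genes rose and 26.1% fell. Of their 7 parents 6 fell (median -0.32) and 0 rose. At 120 hpi with wild type 30.9% of all genes were higher and 50.6% lower. There 4 paralogs were lower and 0 higher, and 2 parents were higher and 3 lower.

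Rpl3l, the striated-muscle counterpart of Rpl3, rose with wild type and fell with both mutants within 1 h. In the wild-type series, in order of time, it stood at 7.62 and 7.03 CPM, then 11.8 and 13.9, 11.5 and 12.6, 8.13 and 8.29, 1.17 and 1.36, and 2.01 and 1.71. With R35A the values were 8.42 and 6.74, then 2.74 and 2.70, 1.88 and 1.8, 1.98 and 2.47, 1.11 and 0.576, and 0.779 and 0.939. With R35K they were 8.71 and 6.65, then 3.41 and 3.71, 3.74 and 4.28, 2.81 and 2.21, 0.766 and 1.13, and 1.31 and 0.681. The constructs overlapped at 0 hpi, and from 1 to 6 hpi both wild-type libraries lay above every mutant library.

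At 1 hpi Rpl3l rose with wild type (0.83 ± 0.13, adjusted p 3.43e-08) and fell with R35A (-1.48 ± 0.17, 4.32e-13) and R35K (-1.11 ± 0.18, 1.51e-07). The difference was -2.30 ± 0.21 (1.26e-16) for R35A and -1.87 ± 0.22 (3.52e-12) for R35K. At 18 hpi it was down with all 3 (-2.51 ± 0.21, -3.20 ± 0.22 and -3.02 ± 0.23). At 120 hpi the differences of -1.19 ± 0.38 (0.00885) and -1.03 ± 0.38 (0.0347) were lost without single libraries (adjusted p up to 0.0648 for R35A and 0.347 for R35K). All windows of Rpl3l are its own, no annotated exon overlaps it, and its start window above has no pyrimidine run. Its parent Rpl3 fell with every construct at that time.

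Rps4l, an autosomal copy of Rps4x that GENCODE annotates as a transcribed processed pseudogene, rose early and was then nearly lost. With wild type it stood at 16.5 and 16.8 CPM before induction, 20.7 and 19.6 at 1 hpi, 30.9 and 30.7 at 18 hpi, and 0.401 and 0.171 at the end. With R35A it stood at 16.8 and 19.6, 26.2 and 25.6, 27.7 and 28.0, and 0.389 and 0.578. With R35K it stood at 18.3 and 18.3, 19.8 and 19.4, 23.6 and 24.4, and 0.847 and 0.681. In each course the libraries at 120 hpi were far below all others. The change from 0 to 120 hpi was -5.73 ± 0.25 with wild type (adjusted p 3.35e-39), and with R35A and R35K it was -5.19 ± 0.21 (4.44e-42) and -4.52 ± 0.19 (3.34e-29). At 18 hpi the rise was 0.91 ± 0.09 (2.61e-16), 0.60 ± 0.08 (8.14e-10) and 0.40 ± 0.08 (4.25e-05), and the R35K change was below that of wild type (-0.47 ± 0.12, 0.00156).

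The summed level of 9 fibroblast (feeder) markers, among them Col1a1, Col3a1 and Sparc, also rose to 18 hpi and was low at 120 hpi with wild type. It was 2519 and 2585 CPM before induction, 4640 and 4646 at 1 hpi, 6079 and 6183 at 18 hpi, and 146 and 172 at the end. In the mutants it was highest early. With R35A it went from 2705 and 2774 to 4751 and 4803 at 1 hpi, 4044 and 4060 at 18 hpi, and 514 and 543 at 120 hpi. With R35K it went from 2593 and 2684 to 3734 and 3622, then 3064 and 3059, and 446 and 380. With wild type all 9 were higher at 1 hpi and all 9 lower at 120 hpi, where 25.4% of all genes were higher and 50.6% lower. The part of feeder RNA in Rps4l, and in the fall and rise of the other members, was not tested.

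Rpl39l, the male germ line counterpart of the tunnel-exit protein Rpl39, was the one member to rise with all 3 constructs at 1 hpi. With wild type it stood at 1.57 and 1.68 CPM before induction, 3.38 and 3.26 at 1 hpi, 4.15 and 5.82 at 18 hpi, and 0.642 and 1.45 at the end. With R35A it stood at 2.16 and 1.2, 4.91 and 5.57, 5.95 and 6.33, and 4.98 and 5.42. With R35K it stood at 1.78 and 1.04, 3.93 and 4.14, 5.60 and 5.40, and 4.54 and 3.18. The mutants thus held the raised level at 120 hpi, above every wild-type library of that time. The rise at 1 hpi was 1.04 ± 0.26 (adjusted p 0.000322), 1.67 ± 0.22 (4.8e-11) and 1.5 ± 0.25 (3.94e-07). At 120 hpi it was 1.70 ± 0.23 (9.84e-11) with R35A and 1.48 ± 0.26 (8.43e-07) with R35K, and -0.58 ± 0.36 (0.13) with wild type. The difference was 2.27 ± 0.43 (5.65e-06) for R35A and 2.03 ± 0.45 (0.000176) for R35K. Its parent Rpl39 fell at 1 hpi (-0.19, -0.63 and -0.44 with wild type, R35A and R35K).

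Rps27l, a paralog of Rps27 known as a p53 target, rose mildly at 18 hpi, from 112 and 118 to 132 and 140 CPM with wild type (0.26 ± 0.04, adjusted p 4.82e-08), and was at 67.0 and 61.4 at 120 hpi (-0.77 ± 0.05, 9.68e-28). With R35A it stood at 82.1 and 81.0 at 120 hpi (-0.43 ± 0.05, 4.52e-15), and its difference from wild type was 0.34 ± 0.07 (1.75e-05). With R35K it was at -0.59 ± 0.05 (5.13e-16). Of 11 other p53 target genes, all 11 rose with wild type at 18 hpi (median 0.67) and 10 were lower at 120 hpi (-1.68). Of all genes 35.9% were higher at 18 hpi and 50.6% lower at 120 hpi. The part of p53 in the course of Rps27l was not tested. Rpl22l1, a paralog of Rpl22 studied in T cell development, fell from 52.9 and 52.6 to 24.2 and 26.5 CPM at 18 hpi with wild type (-1.04 ± 0.07, 3.17e-26). Its wild-type fall at 1 hpi was -0.27 ± 0.06 (0.000126) and its R35A fall -0.76 ± 0.07 (3.85e-19). Rpl7l1, which takes part in large-subunit assembly in the nucleolus, went from 94.4 and 96.2 to 74.5 and 79.5 CPM at 1 hpi with wild type (-0.30 ± 0.05, 9.37e-08), and at 120 hpi it was at -0.06 ± 0.05 (0.215).

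**Figure D5:**
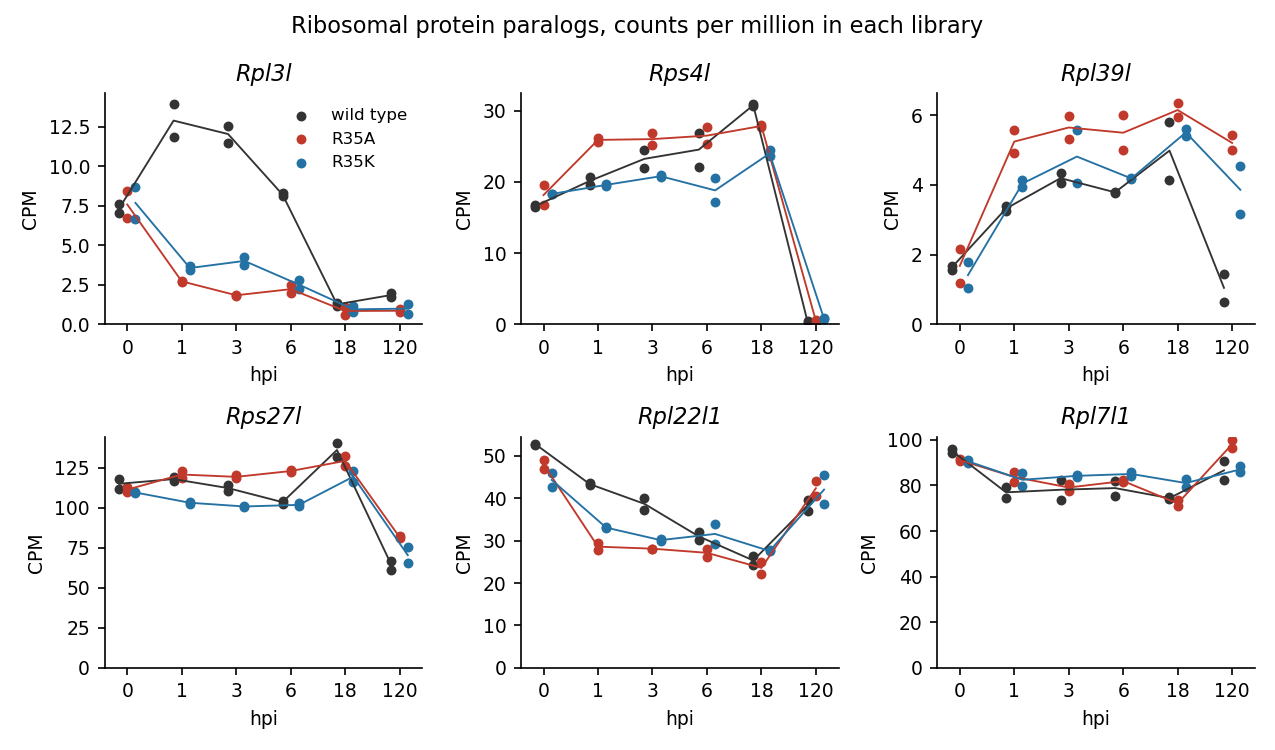
Level (CPM, linear axes from 0) of 6 paralog members by hpi, with 1 point per library and lines through the means of the 2 libraries of wild type, R35A and R35K. Rpl3l rises with wild type at 1 hpi (11.8 and 13.9) and drops with both mutants, Rps4l is under 1 CPM in all libraries at 120 hpi, and Rpl39l stays up at 120 hpi in the mutants only.

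Other genes of protein synthesis were counted from lists, by the same tests. The share of all genes called lower at 1 hpi was 26.1%, 33.9% and 34.6% with wild type, R35A and R35K. Of 18 translation factors known to have TOP mRNAs, such as Eef1a1, Eef2 and Npm1, 17 fell at 1 hpi with wild type (median -0.24), 17 with R35A (-0.47) and 17 with R35K (-0.40). The one not called lower was Tpt1, at 0.01 ± 0.16 with wild type (0.97) and 0.43 ± 0.08 with R35K (adjusted p 1.04e-05). Eef2, the elongation factor that moves the ribosome along, was at -0.28 ± 0.03 (4.01e-17), -0.47 ± 0.03 (6.18e-32) and -0.53 ± 0.03 (1.03e-23). For R35A minus wild type 12 of the 18 were lower at 1 hpi (-0.18) and 14 at 120 hpi (-0.26). Of all genes 19.7% and 13.2% were lower in these differences. Rack1, a ribosomal protein outside the naming pattern, was also lower: -0.22 ± 0.03 (1.08e-10), -0.45 ± 0.03 (7e-27) and -0.45 ± 0.03 (2.86e-17) at 1 hpi. The difference at 120 hpi was -0.54 ± 0.04 (1.54e-21) for R35A.

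The 77 mitochondrial ribosomal protein genes, whose products work inside mitochondria, were also mostly lower. At 1 hpi 47 were lower and 1 higher with wild type (median -0.22), 57 and 2 with R35A (-0.37) and 49 and 2 with R35K (-0.27), where 26.1%, 33.9% and 34.6% of all genes were lower. At 120 hpi, for R35A minus wild type, 20 were higher and 2 lower (median 0.14), where 20.5% of all genes were higher and 13.2% lower. For R35K minus wild type 3 were higher and 1 lower, where 14.2% of all genes were higher and 10.8% lower. Of the TOP-type host genes of small nucleolar RNAs all 6 were lower at 120 hpi with wild type (median -1.25) and R35A (-1.63), where 50.6% and 49.4% of all genes were, among them Gas5 (-1.03 ± 0.04 and -1.54 ± 0.04, adjusted p 1.72e-44 and 1.48e-58).

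Of 14 regulators of ribosomal protein synthesis, 6 rose and 4 fell at 1 hpi with wild type, 4 and 8 with R35A, and 3 and 9 with R35K. Of all genes 25.4% rose and 26.1% fell with wild type, 32.3% and 33.9% with R35A, and 29% and 34.6% with R35K. Myc, a transcription factor that drives ribosome production, rose at 1 hpi with wild type (0.51 ± 0.06, adjusted p 4.71e-12), R35A (0.75 ± 0.06, 6.02e-23) and R35K (0.96 ± 0.06, 1.13e-22). At 120 hpi it was at 125 CPM in both wild-type libraries, 63.6 and 60.8 with R35A and 69.9 and 69.5 with R35K, with a difference of -1.24 ± 0.08 (4.28e-25) for R35A minus wild type. Mtor and Larp1 fell at 1 hpi with wild type, R35A and R35K, Mtor by 0.52, 0.59 and 0.69 and Larp1 by 0.31, 0.33 and 0.46 on the log2 scale.

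Cell type markers changed as well, though not always in step with the members. The sum of 10 B cell markers went from between 4137 and 4476 CPM at 0 hpi over the 6 libraries to 2092 and 2101 at 1 hpi with wild type, 696 and 700 with R35A, and 1200 and 1223 with R35K. The sum of 10 macrophage markers went from between 122 and 132 to 1188 and 1198 with wild type, 4921 and 4933 with R35A, and 10228 and 10360 with R35K. At 120 hpi it was at 21385 and 21392, 28797 and 30993, and 27557 and 27819. With wild type it had gone from its 1 hpi level to 753 and 782 at 3 hpi, 804 and 799 at 6 hpi, and 1152 and 1153 at 18 hpi. The wild-type B cell sum was 419 and 424 at 18 hpi and 240 and 247 at 120 hpi, falling while the member share rose. At 120 hpi the B cell sum was 148 and 146 with R35A and 203 and 207 with R35K. The labelled B cell identity at 0 hpi and the change toward macrophages thus show in the markers, and at 1 hpi R35A had the lowest B cell sum and the lowest member share, while R35K had the highest macrophage sum. The part of the change in cell identity in the members' courses was not tested.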

How the data were processed

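RNA-seq counts per gene were deposited by the authors, who aligned reads to mm10 with STAR 2.5.0a and counted uniquely mapped reads with its gene counting. The authors also deposited log2 values, which equal log2(count/size factor + 1) with DESeq2 1.14.1 size factors and were used only to choose members. The annotation release and strand setting are not given in the sources used here. The members and gene lists were chosen with earlier results of these data known.

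Counts were tested with edgeR 4.0.16 in R 4.3.3 (TMM, quasi-likelihood F test, Benjamini-Hochberg over all genes tested). Wild type and R35A were fitted together (24 libraries, 16988 genes), R35K alone (12 libraries, 16434 genes), and R35K against wild type over all 36 libraries (17277 genes). Rpl23a and Rps3a3 did not pass the count filter in R35K. Depth was 13044456 to 23131776 counts, and its precision enters through the count model. The scripts were tested on simulated data.

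Named genes were the 5 largest called rises and falls with replicates that did not overlap (each construct at 1 and 120 hpi, and R35A minus wild type at 1 hpi), the paralogs with their parents, and the structural groups, apart from results not reported here. Rps13, Rps23, Rpl35, Rpl13a, Rps25 and the genes of other lists were named after their values were seen. Alternatives were DESeq2 1.42.0, its size factors, library size alone, TMM without the members, 2 other count filters, only the groups compared, a replicate block, added pseudogene counts, the study's thresholds (1.5-fold and unadjusted p of at most 0.05) and each library left out. A further one, members with at least 50% of windows of their own, was chosen after seeing the data.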

Additional observations from a re-analysis of the deposited data

Results flagged for a closer look

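All results here compare a mutant's change since 0 hpi with that of wild type, tested as an interaction with edgeR. The R35A and R35K comparisons use the same wild-type libraries. Of 84 members, 38, 21, 4 and 49 were called for R35A minus wild type at 1, 6, 18 and 120 hpi. For R35K minus wild type 22, 21, 24 and 40 were called. Of all genes, 14.7%, 11.8%, 12.1% and 20.5% were called higher for R35A minus wild type at these times. Another 19.7%, 14.5%, 10% and 13.2% were called lower. For R35K minus wild type these were 14.7%, 16.1%, 18.7% and 14.2% higher and 14.3%, 14.1%, 12.3% and 10.8% lower. Both directions together, the share of members called exceeded that of all genes for R35A at 1 hpi and for both mutants at 120 hpi. In the other listed comparisons it did not.

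At 1 hpi R35A minus wild type was -2.30 for Rpl3l, -0.59 for Rps19, -0.58 for Rps3a1, -0.55 for Rpl29, -0.49 for Rpl22l1 and Rpl13a, 0.50 for Rpl10 and 0.38 for Rpl10a. R35K minus wild type was -1.87 for Rpl3l, -0.33 for Rps19, -0.38 for Rpl13a, 0.52 for Rpl10 and 0.32 for Rpl10a. At 18 hpi it was -0.47 for Rps4l, 1.06 for Rps23 and 0.48 for Rpl35.

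At 120 hpi R35A minus wild type was 2.27 for Rpl39l, 0.34 for Rps27l, 0.19 for Rpl7l1, -1.19 for Rpl3l, -1.01 for Rpl19, -0.75 for Rpl11, -0.70 for Rps25 and Rps3a1, -0.43 for Rps9, -0.54 for Rpl23 and -0.51 for Rpl10. R35K minus wild type was 2.03 for Rpl39l, 0.33 for Rpl22l1, -1.03 for Rpl3l, -1.02 for Rpl19, -0.66 for Rps25, -0.37 for Rps9 and -0.38 for Rpl23. The R35A call of Rpl7l1 was lost with DESeq2 (adjusted p 0.133), its size factors (0.0556), only the groups compared (0.12, 0.264), and without any of 4 single libraries, among them the second wild-type 120 hpi library (0.13, 0.195). The R35K call of Rpl22l1 was lost without the first R35K 120 hpi library (0.20, 0.2) or the second R35K 0 hpi library (0.054).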

How the results depend on the processing

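The replicate numbers only share a number (correlations of same-numbered deviations had a median of -0.0065 over 153 group pairs, highest 0.212). With the replicate block 14 members were higher and 33 lower at 120 against 0 hpi with wild type, as without it.

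The study's thresholds moved the number of members called most. With wild type they left 12 at 1 hpi, 41 at 18 hpi, 15 at 120 hpi and 34 for 120 against 18 hpi. With R35A they left 31, 33, 37 and 9, and with R35K 22, 24, 25 and 9. For R35A minus wild type they left 2, 1 and 14 at 1, 18 and 120 hpi, and for R35K minus wild type 2, 1 and 8. By library size alone the count at 120 against 0 hpi with wild type was 73, and that of R35K minus wild type at 18 hpi 15. DESeq2's Wald test gave 2 for R35A against wild type at 0 hpi, 1 for R35A minus wild type at 18 hpi and 8 for R35K minus wild type at 18 hpi, where its size factors gave 12. Only the groups compared gave 2 at 0 hpi and 12 for R35A minus wild type at 18 hpi. The share of all genes called was not counted for these alternatives, and the causes were not tested.

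Leaving out each library gave 2 (without wild-type 0 hpi replicate 1) to 7 (without wild-type 18 hpi replicate 1) for R35A minus wild type at 18 hpi. For R35K minus wild type it gave 13 (without R35K 18 hpi replicate 1) to 23 at 18 hpi, and 14 to 21 at 1 hpi.

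Members' medians changed sign as follows. With wild type at 120 against 0 hpi the median was 0.0116 with DESeq2's Wald test or size factors, 0.099 with only the groups compared, and -0.16 to 0.037 with each library left out. With R35A at 120 against 18 hpi it was -0.23 by library size -0.0019 without a filter and -0.0037 with only the groups compared, and with R35K -0.17 by library size. R35A minus wild type at 18 hpi was -0.0131 with the Wald test and -0.0152 with its size factors.

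Single genes that changed sign at 120 against 0 hpi did so with small values. With only the groups compared they were Rpl7l1 with wild type at 0.17, Rps9 at 0.13, Rpl23 at 0.0835 and Rpl22l1 at 0.0339 with R35A, and Rpl7l1 with R35K at 0.18. By library size alone they were Rpl7l1 with R35A at -0.21, and Rpl10 at -0.0562, Rpl37a at -0.0922, Rps9 at -0.33 and Rpl23 at -0.28 with R35K. Rpl23 with R35A was also at 0.015 with the Wald test, 0.0157 with size factors, 0.0093 without the members in the scaling and 0.0044 with the filter of 10 counts, and between -0.154 (without R35A 0 hpi replicate 2) and 0.087 (without R35A 120 hpi replicate 1). With each library left out, Rps9 with R35A was between -0.0934 and 0.14 (without R35A 120 hpi replicate 2), and Rpl22l1 with R35K between -0.0891 and 0.18 (without R35K 120 hpi replicate 2). Rpl7l1 with R35K was at 0.13 with DESeq2's size factors. Rps4l at 1 hpi with wild type was not called without 0 hpi replicate 1 or 1 hpi replicate 1.

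Of 290 alternative counts of members 257 stayed within 1.5 times in total, whatever the direction of the calls. Of 290 alternative medians 225 kept their sign and stayed within 0.0595 of the main value, 55 moved further and 10 changed sign. Shares of counts were recomputed with pseudogenes added or without the 100 largest other genes. Of these 36 values 25 moved by more than the SD of the 2 libraries. Of 2309 values of single genes 2183 kept their direction and side of the threshold. Low unique coverage limits members such as Rps27, and 24 members had a mean level below 10 CPM.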
